A study of Mus musculus with 3 samples.

Results

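The 10 genes described here encode regulators of the trophoblast, the lineage that surrounds the mouse embryo and builds the fetal part of the placenta. They were chosen by symbol, as *Elf5*, *Cdx2*, *Tfap2c*, *Ets2*, *Ascl2*, *Plet1*, *Hand1*, *Gata2*, *Gata3* and *Tead4*, from a table of 23421 genes. *Plet1* was found under *1600029D21Rik*, which RefSeq lists as its older symbol. The other 9 genes encode DNA-binding transcription factors, whereas *Plet1* encodes a surface protein that marks trophoblast progenitors. RNA was sequenced from 3 libraries of E6.5 embryos obtained by matings, 1 wild type, 1 tw18/+ and 1 tw18/tw18. The labels give the strain as 129/SvEv, while the study describes the genetic background of its embryos as not inbred. tw18 is a *t* haplotype with a large deletion on Chr 17 that removes *Ppp2r1a*, the gene of a scaffold subunit of protein phosphatase 2A, and none of the 10 genes lies on that chromosome. The labels name the tissue as epiblast. According to the study's methods, the RNA came from the embryo proper, epiblast with its cover of visceral endoderm, and the extra-embryonic part was removed for genotyping.

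The trophoblast arises as the outer layer of the blastocyst. After implantation its proximal part forms the extra-embryonic ectoderm next to the epiblast and, further away, the ectoplacental cone and the giant cells. TEAD4 with its cofactor YAP and GATA3 act early to start the lineage, CDX2, ELF5, TFAP2C and ETS2 keep its stem cells dividing, and ASCL2 and HAND1 act in differentiating cells of the ectoplacental cone and in giant cells. Several of the genes also work elsewhere. *Gata2* is expressed in endothelium, blood precursors and decidual stroma, *Hand1* in extra-embryonic mesoderm, and *Tfap2c* in primordial germ cells.

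Each value is an FPKM, a number of sequenced fragments scaled by transcript length and by library depth, so that levels of different genes in the same library can be compared per length. With 1 library per genotype no spread between embryos is known, no test was possible and no p-value is given. The FPKM of *Ppp2r1a* was 146 in wild type, 81.7 in tw18/+ and 12.8 in tw18/tw18. The value in tw18/tw18 was thus low but above 0 for a gene that the deletion removes, and its source was not tested. The spacing of low FPKM values put 1 fragment on a transcript of 1 kb at 0.0656 in wild type, 0.0478 in tw18/+ and 0.0485 in tw18/tw18, so that wild type was the shallowest library. Fragment numbers given below were estimated from this spacing and from the longest annotated coding transcript. The intervals of folds are exact 95% binomial intervals of these numbers and cover counting error only.

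All 10 genes had their highest FPKM in tw18/tw18. So did 41% of the 13118 genes that reached an FPKM of 1 in any library. In tw18/tw18 against wild type, 8 of the 10 genes reached a log2 ratio of 1, the threshold used here, and none reached -1. Of 12917 genes, 15.1% were past the threshold upwards and 6.94% downwards. A gene was counted in a comparison where the higher of its 2 FPKM values was 1 or more. When both libraries were scaled to equal FPKM sums, 8 of the 10 genes were again past the threshold, beside 20.3% of 13144 genes upwards. Of the genes past it, 80.9% were then higher in tw18/tw18, against 68.5% as deposited. Counts of the lists below with equal FPKM sums are to be read beside this 20.3%. The median difference of log2(FPKM + 1) was 1.07 over the 10 genes and -0.0074 over the 12917. The FPKM summed over the 10 genes was 71.9 in wild type, 78.3 in tw18/+ and 155 in tw18/tw18. In bulk RNA, more cells of a type and more RNA per cell cannot be told apart.

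**Figure D1:**
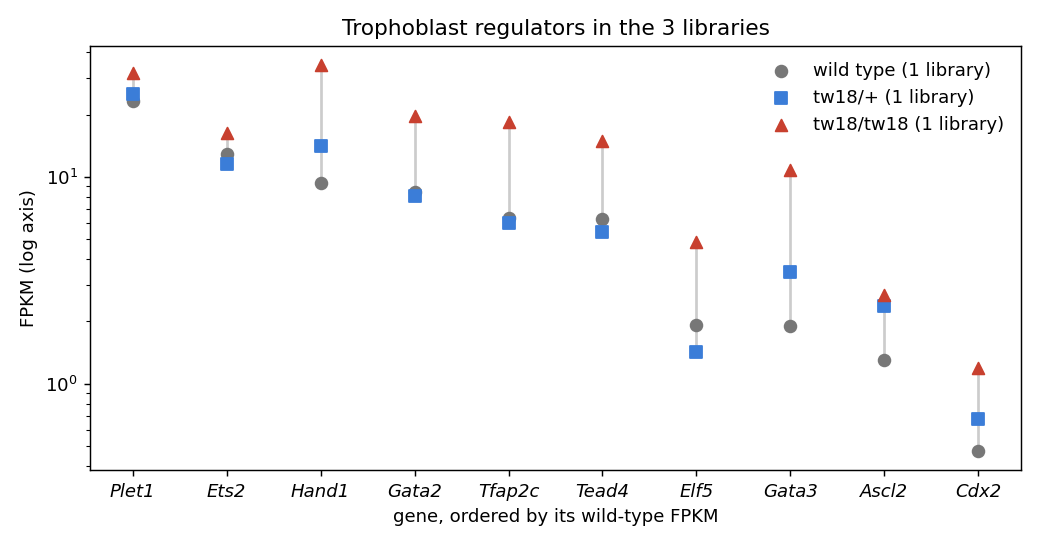
FPKM of each of the 10 genes on a log axis, ordered by the wild-type value, with 1 symbol per library and a grey line from the lowest to the highest library. The tw18/tw18 value is the highest of each gene, and the gap is smallest for *Plet1* and *Ets2*.

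In wild type the order of levels was *Plet1* (23.2), *Ets2* (12.8), *Hand1* (9.31), *Gata2* (8.44), *Tfap2c* (6.36), *Tead4* (6.23), *Elf5* (1.93), *Gata3* (1.89), *Ascl2* (1.30) and *Cdx2* (0.473), all as FPKM. *Cdx2* was therefore the gene of the group that did not reach an FPKM of 1 in wild type, and it also stayed below 1 in tw18/+. In tw18/tw18 *Hand1* (34.6) and *Plet1* (31.8) were highest, followed by *Gata2* (19.8), *Tfap2c* (18.4), *Ets2* (16.4), *Tead4* (14.9), *Gata3* (10.8), *Elf5* (4.85), *Ascl2* (2.69) and *Cdx2* (1.19). Whether neighbours in these orders differ beyond the spread of embryos is not known without replicates. Among all genes with an FPKM above 0, *Hand1* stood at percentile 57.8 in wild type and at 87.4 in tw18/tw18, while *Cdx2* stood at 13.6 and 25.5.

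The start sites of the genes were compared in RefSeq windows of GRCm38.p6. Of the 10 genes, 7 had entries, with 9 windows in all, and *Tfap2c*, *Hand1* and *Tead4* had none. The 250 bases before each start were searched on both strands for 6 words, AGATAA for GATA factors, CANNTG for bHLH factors, GGAATG for TEAD factors, GCCNNNGGC for AP-2 factors, TTTATG for CDX factors and ACCGGAAG for ETS factors. The words could overlap each other. The sequences shown 5′ to 3′ are those of *Gata3*, which had the largest ratio, the inner start of *Elf5*, *Cdx2* and the first start of *Gata2*. They compare single windows, with and without such words, of genes past the threshold. Matches are in capitals. Bases of annotated exons of the gene itself were left out at the 3′ end of *Elf5* and *Cdx2*.
Gata3, chr2:9878601-9878850, minus strand: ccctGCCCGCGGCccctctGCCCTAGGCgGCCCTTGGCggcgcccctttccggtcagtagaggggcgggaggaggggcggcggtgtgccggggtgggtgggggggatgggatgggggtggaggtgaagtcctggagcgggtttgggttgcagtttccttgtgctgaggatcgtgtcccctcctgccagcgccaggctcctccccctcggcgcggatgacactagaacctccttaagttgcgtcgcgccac
Elf5, chr2:103423818-103424061, plus strand: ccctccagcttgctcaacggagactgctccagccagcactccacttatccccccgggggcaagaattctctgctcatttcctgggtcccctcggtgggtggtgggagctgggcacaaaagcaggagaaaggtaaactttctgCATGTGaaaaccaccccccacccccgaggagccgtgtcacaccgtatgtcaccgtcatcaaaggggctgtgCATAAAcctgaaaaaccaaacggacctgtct
Cdx2, chr5:147307271-147307499, minus strand: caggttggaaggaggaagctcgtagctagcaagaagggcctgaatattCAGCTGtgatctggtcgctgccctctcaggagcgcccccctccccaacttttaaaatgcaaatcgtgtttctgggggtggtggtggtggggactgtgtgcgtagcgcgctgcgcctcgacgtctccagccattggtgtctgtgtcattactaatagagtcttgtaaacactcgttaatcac
Gata2, chr6:88193641-88193890, plus strand: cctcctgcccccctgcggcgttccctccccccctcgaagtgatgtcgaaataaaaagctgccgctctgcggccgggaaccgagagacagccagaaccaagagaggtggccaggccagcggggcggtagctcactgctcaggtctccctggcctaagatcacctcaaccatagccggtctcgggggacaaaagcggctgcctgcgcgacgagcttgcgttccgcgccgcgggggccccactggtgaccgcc

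The *Gata3* window held 3 AP-2 words, all near its 5′ end, and overlaps an exon of the antisense gene *Gm13256*. The *Elf5* stretch held 1 E-box, the CANNTG word, and 1 CDX word, and the *Cdx2* stretch held 1 E-box, with an AP-2 word in the exon bases left out. The *Gata2* window shown held no word of the 6. The other *Gata2* window, not shown, held 1 TEAD word and 1 AP-2 word. The other *Elf5* window, not shown, held 4 E-boxes and 1 TEAD word. Over the 9 windows, AP-2 words occurred in 3, where 13.7% of all 32851 windows held 1, E-boxes in 5 (66.2% of all windows), TEAD words in 2 (12.6%) and the CDX word in 1 (10.8%). GATA and ETS words occurred in none of the 9, and in 9.99% and 1.72% of all windows. The GC content of the *Gata3* window was 70.0%, against a median of 52.4% over all windows. It was 55.2% for *Cdx2* and 74% for the other *Gata2* window, which also held AP-2 words. The fixed letters of the AP-2 word are all G or C, and its share of all windows was not matched for GC content. These counts describe letters in short windows.

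Among the genes that start the trophoblast lineage, *Gata3* had the largest ratio of the 10. This zinc finger factor promotes trophoblast differentiation and lies on Chr 2 from 9857078 to 9890034 (GRCm38). Its FPKM was 1.89 in wild type, 3.45 in tw18/+ and 10.8 in tw18/tw18, from about 88, 221 and 682 fragments. The tw18/+ value lay between those of the other libraries, as for *Cdx2*, *Ascl2*, *Plet1* and *Hand1*. In the other 5 genes tw18/+ was lowest. As tw18/tw18 was highest for all 10 genes, this split only tells whether tw18/+ was above wild type. Of 12426 genes, 50.5% were above it. The interval of the fold of tw18/+ over wild type included 1 for *Cdx2* (0.760 to 2.91) and *Plet1* (0.977 to 1.22). For *Gata3* the fold of tw18/tw18 over wild type was 5.70 (4.58 to 7.24), a log2 ratio of 2.51 that lay at percentile 96.0 of the 12917 genes counted. *4930412O13Rik*, on the opposite strand within *Gata3*, stood at an FPKM of 0.197 in wild type, 0.0257 in tw18/+ and 0.633 in tw18/tw18. The libraries were strand-specific, but whether the strand was used in the quantification is not given in the sources used here, so fragments of the overlapping genes may have been shared.

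*Tead4*, on Chr 6 from 128224288 to 128300823, encodes the DNA-binding partner of YAP that is needed for the first trophoblast cells. Its FPKM was 6.23 in wild type, 5.42 in tw18/+ and 14.9 in tw18/tw18, from about 278, 332 and 898 fragments. Wild type and tw18/+ lay close together, with tw18/tw18 above both. The fold over wild type was 2.39 (2.09 to 2.74), and over tw18/+ it was 2.75 (2.42 to 3.12). *Gm21893*, on the opposite strand, overlaps *Tead4* in the annotation, so the value of *Tead4* may hold its fragments.

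The factors of trophoblast stem cells spanned a wide range of levels. *Cdx2*, the homeobox gene of the trophectoderm, lies on Chr 5 from 147300805 to 147307270. Its FPKM was 0.473 in wild type, 0.677 in tw18/+ and 1.19 in tw18/tw18. These values rest on about 15, 30 and 52 fragments, the fewest of the group. The fold of tw18/tw18 over wild type was 2.52 with a wide interval from 1.42 to 4.90. With a pseudocount of 1 its log2 difference was 0.57, under the threshold. *Elf5*, on Chr 2 from 103411688 to 103450989, encodes an ETS factor whose promoter is methylated and silent in the embryo proper and active in the trophoblast. Its FPKM was 1.93 in wild type, 1.42 in tw18/+ and 4.85 in tw18/tw18, from about 70, 71 and 238 fragments. The lowest value was that of tw18/+, and the fold of tw18/tw18 was 2.51 (1.92 to 3.33) over wild type and 3.42 (2.60 to 4.50) over tw18/+. With a pseudocount of 1 the difference against wild type was 0.998, just under the threshold.

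*Tfap2c*, which encodes AP-2 gamma and lies on Chr 2 from 172549593 to 172558622, measured 6.36 FPKM in wild type, 5.99 in tw18/+ and 18.4 in tw18/tw18. Wild type and tw18/+ were nearly equal and tw18/tw18 was apart from both. The fold over wild type was 2.90 (2.53 to 3.32), based on about 275 and 1077 fragments, and the log2 ratio was 1.54. *Ets2*, on Chr 16 from 95702075 to 95721051, acts downstream of FGF signaling in trophoblast stem cells. Wild type had an FPKM of 12.8, tw18/+ 11.5 and tw18/tw18 16.4, with about 731, 903 and 1261 fragments. The log2 ratio in tw18/tw18 was 0.35, under the threshold, and the fold was 1.27 (1.16 to 1.40). *Plet1*, on Chr 9 from 50494525 to 50505482, was likewise under the threshold, at 23.2 in wild type, 25.3 in tw18/+ and 31.8 in tw18/tw18 and with a fold of 1.37 (1.23 to 1.52). The antisense gene *Plet1os* overlaps *Plet1* in the annotation, so the value of *Plet1* may hold its fragments. The 2 most abundant genes of the group in wild type thus had the smallest ratios.

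The factors of differentiating trophoblast had different patterns. *Ascl2*, on Chr 7 from 142966829 to 142969264, is an imprinted bHLH gene needed for the spongiotrophoblast. Its FPKM was 1.30 in wild type, 2.38 in tw18/+ and 2.69 in tw18/tw18, from about 29, 72 and 81 fragments. Here tw18/+ lay close to tw18/tw18. The log2 ratio of tw18/tw18 against wild type was 1.04, with a fold of 2.06 (1.34 to 3.27), and against tw18/+ it was 0.17. With a pseudocount of 0.1 the former was 0.99 and with 1 it was 0.68, both under the threshold. *Hand1*, on Chr 11 from 57828705 to 57832818, encodes a bHLH factor that drives giant cell formation and is also expressed in extra-embryonic mesoderm. Wild type had an FPKM of 9.31, tw18/+ 14.0 and tw18/tw18 34.6, with about 249, 515 and 1253 fragments. As for *Gata3*, tw18/+ lay between the other libraries, and the fold of tw18/tw18 over wild type was 3.72 (3.24 to 4.28). *Gata2*, on Chr 6 from 88193891 to 88207032, activates prolactin-family genes in giant cells. It measured 8.44 FPKM in wild type, 8.08 in tw18/+ and 19.8 in tw18/tw18, with about 440, 578 and 1395 fragments and a fold of 2.34 (2.10 to 2.62) over wild type.

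**Figure D2:**
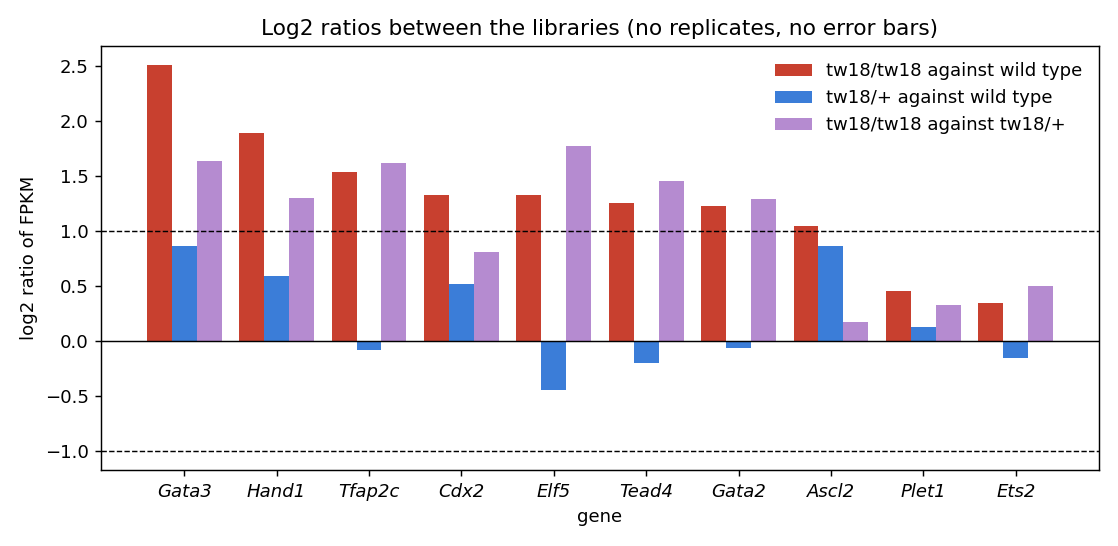
Log2 ratio of FPKM for each gene and pair of libraries, ordered by the ratio of tw18/tw18 against wild type, with dashed lines at the threshold of 1 in either direction. The bars of tw18/+ against wild type stay within the lines, whereas 8 genes pass the upper line in tw18/tw18 against wild type and 6 against tw18/+.

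In tw18/+ none of the 9 genes counted was past the threshold against wild type, where 4.7% of 12426 genes were higher and 5.02% lower. Of the 10 genes, 5 were above their wild-type value and 5 were below it. The median difference of log2(FPKM + 1) was 0.032, with 0.0026 over all genes counted. The largest log2 ratios of tw18/+ were those of *Ascl2* and *Gata3*, at 0.87 each, followed by *Hand1* with 0.59 and *Cdx2* with 0.52. For *Ascl2* and *Gata3* the folds were 1.83 (1.16 to 2.89) and 1.82 (1.42 to 2.37). *Elf5* was lowest against wild type, with a log2 ratio of -0.45 and a fold of 0.734 (0.524 to 1.04). *Tfap2c*, *Gata2*, *Tead4*, *Ets2* and *Plet1* had log2 ratios between -0.20 and 0.13.

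Against tw18/+, 6 of the 10 genes were past the threshold upwards in tw18/tw18 and none downwards, where 14.9% of 12846 genes were higher and 5.65% lower. They were *Elf5* (log2 ratio 1.78), *Gata3* (1.64), *Tfap2c* (1.62), *Tead4* (1.46), *Hand1* (1.30) and *Gata2* (1.29). The same 6 genes were also past the threshold against wild type, as were 9.89% of the 13118 genes in both comparisons. Both comparisons use the same tw18/tw18 library. *Cdx2* (0.82), *Ets2* (0.50), *Plet1* (0.33) and *Ascl2* (0.17) were under the threshold against tw18/+.

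**Figure D3:**
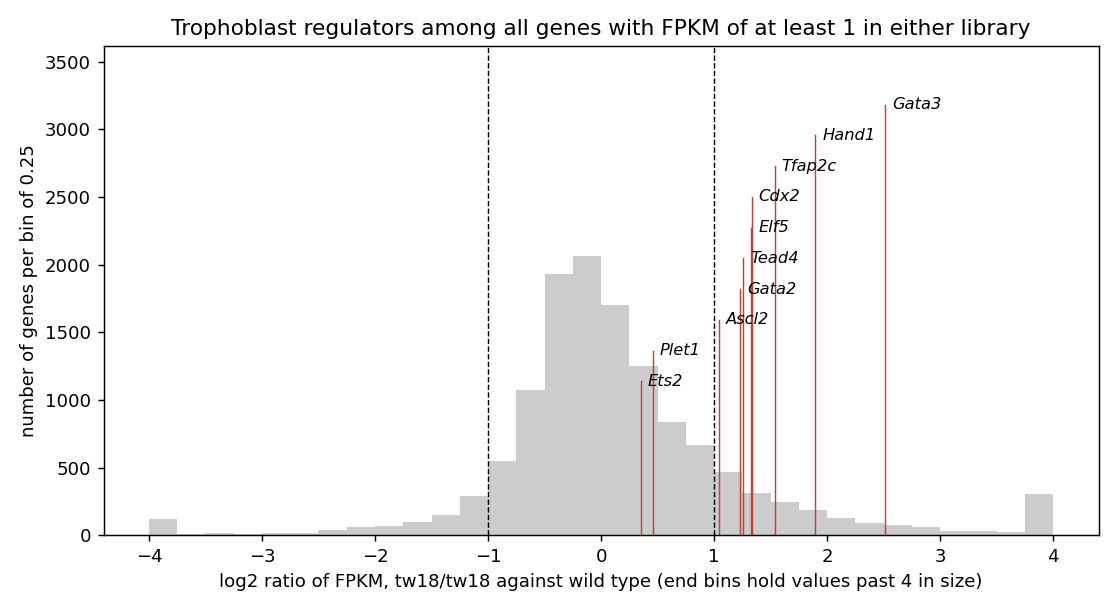
Histogram of the log2 ratio of FPKM in tw18/tw18 against wild type for the 12917 genes that reached an FPKM of 1 in either library, in bins of 0.25, with the 10 genes marked by red lines whose height has no meaning. The 10 genes lie to the right of 0, from *Ets2* at 0.35 to *Gata3* at 2.51, and dashed lines mark the threshold.

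Each factor was set beside the relatives of its family, since related factors can bind the same sequences. Of 24 relatives, 13 had an FPKM of at least 1 in tw18/tw18 or wild type. Of these, 6 were past the threshold upwards and none downwards. In the GATA family, *Gata4*, a gene of the visceral endoderm, was highest in each library, with 26.0 in wild type, 23.0 in tw18/+ and 46.4 in tw18/tw18, and its share of the summed GATA level was 60.4% in wild type and 50.4% in tw18/tw18. The share of *Gata3* was 4.40% in wild type, 8.41% in tw18/+ and 11.7% in tw18/tw18, and that of *Gata2* was 19.6%, 19.7% and 21.5%. *Gata1*, the erythroid member, rose from an FPKM of 0.914 to 3.73.

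The TEAD family differed in makeup between the libraries, with no higher sum in tw18/tw18. *Tead2*, the TEAD gene with the highest FPKM, had 149 in wild type, 147 in tw18/+ and 84.6 in tw18/tw18, a log2 ratio of -0.82, while *Tead1*, *Tead3* and *Tead4* were past the threshold upwards, *Tead1* from 19.7 to 39.4 and *Tead3* from 4.23 to 13.3. The summed TEAD level was 179 in wild type, 179.5 in tw18/+ and 152 in tw18/tw18. The share of *Tead4* was 3.48% in wild type and 9.79% in tw18/tw18. *Tfap2c* made up 82.7% of the AP-2 level in wild type and 90.9% in tw18/tw18, where *Tfap2a* had an FPKM of 1.21 and 1.74. *Hand2* was more abundant than *Hand1* in each library, at 27.5 in wild type, 16.3 in tw18/+ and 63.0 in tw18/tw18. In tw18/+ *Hand1* was higher than in wild type and *Hand2* lower, so that the share of *Hand1* was 25.3% in wild type and 46.3% in tw18/+. *Ets1* rose by a log2 ratio of 1.85, from an FPKM of 1.80 to 6.51, and *Ets2*, with 0.35, remained the more abundant. In the ELF family *Elf4* was past the threshold with a log2 ratio of 1.61, whereas *Elf1*, *Elf2* and *Elf3* had ratios of 0.41, 0.11 and 0.41. *Cdx1* and *Cdx4* were listed at 0 in all 3 libraries, so that *Cdx2* was the detected gene of its family. *Ascl3* and *Ascl5* were also listed at 0 in all 3, and *Ascl4* stood at 0.0902 in tw18/tw18 and was listed at 0 in the others.

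**Figure D4:**
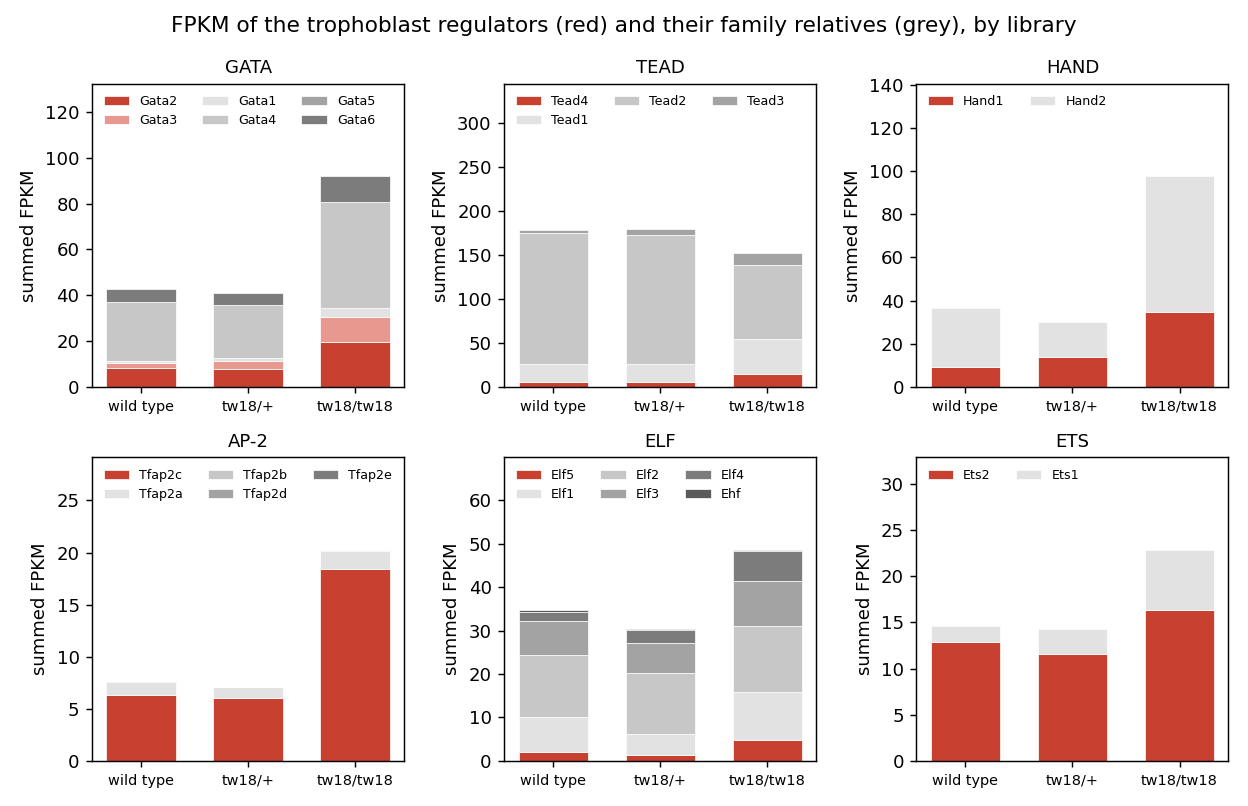
FPKM of the trophoblast regulators (red) and their relatives (grey), stacked by family for the 3 libraries, with a separate linear axis from 0 for each family. The summed level is highest in tw18/tw18 in 5 of the families shown and lowest there for the TEAD family, in which *Tead2* makes up most of each bar.

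Other factors of the trophoblast stem cell network were mixed. Of 12 listed factors, 11 had an FPKM of at least 1 in tw18/tw18 or wild type, and 2 were past the threshold upwards and 2 downwards. *Klf5* rose from an FPKM of 23.3 to 53.2 and *Esrrb*, an orphan nuclear receptor of trophoblast stem cells, from 1.19 to 3.91. *Eomes* and *Sox2* were lower, with log2 ratios of -1.06 and -1.35, and with equal FPKM sums 1 factor remained past the threshold downwards. Both are also genes of the epiblast or primitive streak. Of 17 genes of the Hippo pathway and its TEAD partners, 4 were past the threshold upwards and none downwards. *Tead1* and *Amotl1* were the most abundant of these 4. *Tead1*, *Tead2* and *Tead3* are also among the relatives counted above. *Yap1* itself measured 43.6 FPKM in wild type, 49.1 in tw18/+ and 39.8 in tw18/tw18. Of 6 target genes of YAP and TEAD, 5 were counted and 1, *Axl*, passed the threshold with a log2 ratio of 1.93, and *Ctgf* and *Cyr61* had an FPKM of 3.77 and 5.32 in wild type and 6.23 and 7.92 in tw18/tw18. Among 6 GATA partners, *Zfpm1*, which encodes FOG1, rose by a log2 ratio of 1.10 and *Lmo2* by 1.52, the 2 of 4 counted that passed. Among 8 bHLH partners none of 7 counted was past the threshold upwards and *Mdfi*, an inhibitor of bHLH factors, fell from 14.1 to 5.67. With equal FPKM sums 1 of the bHLH partners, *Id1*, was past it upwards.

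The genes of signals between epiblast and trophoblast were counted from 2 lists. *Fgf4*, the epiblast ligand that keeps trophoblast stem cells dividing, was the 1 gene of 11 in the FGF list past the threshold, with an FPKM of 3.85 in wild type, 3.92 in tw18/+ and 7.76 in tw18/tw18 and a log2 ratio of 1.01. Its receptor gene *Fgfr2* stood at 4.39 in wild type, 2.56 in tw18/+ and 8.41 in tw18/tw18, under the threshold. Of the 12 NODAL and BMP genes, *Bmp4* and *Bmp8b*, ligands from the extra-embryonic ectoderm, rose from 2.43 to 5.78 and from 0.936 to 5.43, and *Pcsk6*, a protease gene, fell from 5.04 to 2.32. With equal FPKM sums 3 of these 12 were past the threshold upwards and none downwards.

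Genes that mark the tissues of the trophoblast were counted next. Of 13 extra-embryonic ectoderm genes, 12 were counted, 8 were past the threshold upwards in tw18/tw18 against wild type and 1, *Eomes*, downwards. With equal FPKM sums the counts were 10 and 0. *Klf5*, *Esrrb*, *Eomes*, *Bmp4*, *Bmp8b* and *Fgfr2* are also on lists counted above. *Klf5* and *Tex19.1* were the most abundant of the 8, the latter at 4.21 in wild type, 5.01 in tw18/+ and 22.7 in tw18/tw18. On the scale of log2(FPKM + 1), the list had a median difference of 1.11. Of 8 genes of the ectoplacental cone and spongiotrophoblast none of 5 counted was past the threshold, and 2 were with equal FPKM sums. *Tpbpa*, their defining marker, stood at 0.317 FPKM in wild type, 0.416 in tw18/+ and 0.0760 in tw18/tw18, and *Tpbpb* was listed at 0 in all 3. Of 10 giant cell genes 8 were counted, 3 were past the threshold upwards and 2 downwards. Those downwards were *Prl2c2* and *Prl4a1*, with log2 ratios of -2.14 and -2.31. From wild type to tw18/tw18, *Prl2c2* fell from 1.74 to 0.396 FPKM and *Prl4a1* from 3.65 to 0.735. *Prl3d1*, *Prl3d2* and *Prl3d3*, which encode placental lactogen I and are so alike that the quantification may divide their fragments wrongly, had the highest levels of that list. *Prl3d1* measured 113 FPKM in wild type, 61.5 in tw18/+ and 202 in tw18/tw18, a log2 ratio under the threshold, and *Prl3d2* and *Prl3d3* were past it with 1.27 and 1.02. Of 10 labyrinth genes, 6 were counted and 3 were past the threshold upwards, *Ly6e*, *Ovol2* and *Cebpa*, while the fusion gene *Synb* was listed at 0 in all 3 libraries and *Gcm1* had at most 0.0769.

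Markers of maternal, vascular and blood tissue were counted in the same way. Of 12 decidual genes 9 were past the threshold upwards and 1, *Prl8a2*, downwards. *Prl8a2*, the decidual prolactin gene, measured 1504 FPKM in wild type, 155 in tw18/+ and 377 in tw18/tw18, in libraries labelled as epiblast. *Des* rose from 45.5 to 201 and *Hand2*, which is also on the list of extra-embryonic mesoderm, from 27.5 to 63.0. Summed over the list, the level was 1710 in wild type, 326 in tw18/+ and 946 in tw18/tw18. *Prl8a2* made up most of the wild-type sum, and 11 of the 12 genes were higher in tw18/tw18 than in wild type. Of 8 stromal genes 6 were past the threshold upwards and none downwards, with a sum of 80.8, 105 and 465, and *Mgp* and *Col1a1* were the most abundant of the 6. Of 10 endothelial genes 7 were past it upwards and none downwards, with a sum of 57.5, 48.8 and 128. *Eng* and *Emcn* were the most abundant of the 7, and *Plvap* was listed at 0 in wild type. Of 10 genes of extra-embryonic mesoderm, 6 were counted, 4 were past the threshold upwards and 1, *Etv2*, downwards. The sum of this list was 36.6, 23.1 and 79.5, most of it from *Hand2*. Of 9 erythroid genes in the table, 5 were counted, 4 were past it upwards and 1 downwards, among them the alpha-globin copies, whose fragments can be split, and the embryonic globin genes *Hbb-bh1*, *Hbb-y* and *Hba-x* were listed at 0 in all 3. The sum over the 9 erythroid genes was 53.4, 57.5 and 181, most of it from the alpha-globin copies. *Hbb-bs*, a beta-globin gene among those past the threshold upwards, stood at 0.0180 in wild type, 0.555 in tw18/+ and 47.6 in tw18/tw18. Of 8 immune genes, 1 of 4 counted was past the threshold, *C1qb*, and the sum was 18.4, 10.8 and 22.4. Of 6 germ cell genes, 1 of 4 counted passed, *Dppa3*, at an FPKM of 1.34 in tw18/tw18 and listed at 0 in the others. The sum of this list was 42.1, 38.4 and 67.9, most of it from *Ifitm3*.

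The tissue named by the labels moved the other way. All 10 epiblast genes were lower in tw18/tw18 than in wild type, 5 of them past the threshold and 3 with equal FPKM sums, and with a median difference of -0.84. *Dnmt3b* and *Pou5f1*, the most abundant of the 5, are those that were no longer past it with equal FPKM sums. The sum over all 10 epiblast genes was 1949 in wild type, 2071 in tw18/+ and 1002 in tw18/tw18. Of 11 visceral endoderm genes none was past the threshold, or 2 upwards with equal FPKM sums, the median difference was 0.41 and the sum was 1037, 1010 and 1408. The part that these changes in other tissues have in the levels of the 10 regulators was not tested.

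**Figure D5:**
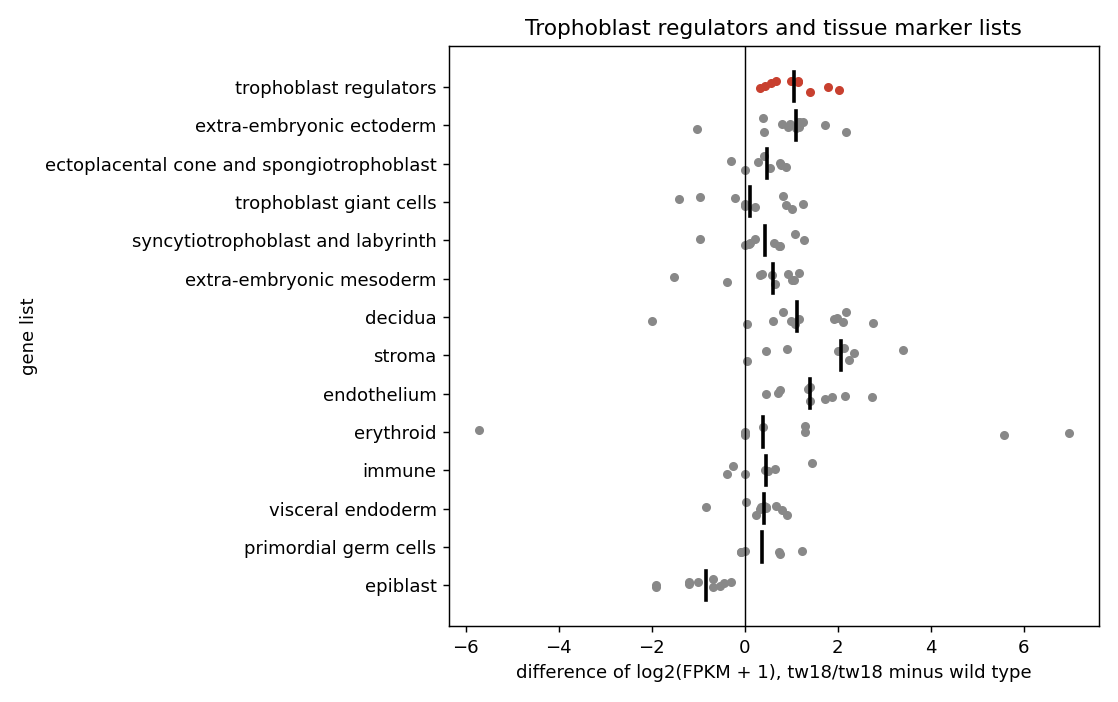
Difference of log2(FPKM + 1) between tw18/tw18 and wild type for each gene (points, spread vertically at random) of the 10 regulators (red) and of 13 marker lists (grey), with the median of each list as a black bar. The medians of the regulators (1.07), the extra-embryonic ectoderm (1.11) and the decidua (1.12) lie side by side, those of the endothelium (1.40) and the stroma (2.07) are higher, and that of the epiblast (-0.84) is below 0.

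The patterns of the genes over the 3 libraries were compared as log2 FPKM minus the mean of each gene. Among the 10, *Gata2* and *Tead4* were most alike, with a Euclidean distance of 0.126. Of 11069 genes that reached an FPKM of 1 in every library, 76 lay nearer to *Gata2* than *Tead4* did. For 9 of the 10, the nearest of these genes were *Vasn* for *Gata2*, *Phlda3* for *Gata3*, *Gpx3* for *Tfap2c*, *Abca1* for *Hand1*, *Grina* for *Tead4*, *Myo5b* for *Cdx2*, *Nr2c1* for *Ascl2*, *Smim19* for *Ets2* and *Thoc2* for *Plet1*, at distances between 0.0011 and 0.0320. *Gpx3*, the gene of a secreted glutathione peroxidase, measured 935 FPKM in wild type, 884 in tw18/+ and 2700 in tw18/tw18. Likeness over 3 values is a description of these libraries.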

How the data were processed

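Total RNA of 1 library per genotype was prepared strand-specifically (TotalScript) and sequenced in 50 bp paired ends. The authors used TopHat with mm10, which is GRCm38, and deposited FPKM values from Cuffdiff. The submitters' processing notes name Bowtie 1.0.0 and Cufflinks 2.2.1. The gene annotation, the library normalization and the embryos per library are not given in the sources used here.

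Ratios are log2 ratios of the deposited FPKM without a pseudocount. The threshold was 1 with an FPKM of at least 1 in the higher library. Medians used log2(FPKM + 1). Depth was read from low FPKM values of genes with 1 annotated transcript (GENCODE M21), with 150 bp allowed for fragment length. Between 79.5% and 84.7% of these values came within 0.2 of whole fragments. The named genes are the 10 regulators and, of 21 fixed lists, the counts with the most abundant genes past the threshold. Some further genes were named after their values were seen, among them *Prl8a2*, *Tpbpa*, *Yap1*, *Fgfr2* and the family relatives. The genes and lists were chosen with earlier results of these data known. Some genes stand on several lists, so the lists are not independent of each other. Alternatives were pseudocounts of 1 and 0.1, other limits on low values, a log2 threshold of 2, centring on the median and equal FPKM sums. The script was tested on simulated data. Python 3.11.15, numpy 2.4.6, pandas 2.3.3, scipy 1.17.1 and matplotlib 3.10.9 were used. Some results of the likeness and family comparisons are not reported here.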

Additional observations from a re-analysis of the deposited data

How the results depend on the processing

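No paired analysis was possible because each genotype has 1 library, and no library could be left out. In tw18/tw18 against wild type, the 8 regulators past the threshold became 5 with a pseudocount of 1, beside 9.5% of all genes upwards. They became 5 when the higher FPKM had to be at least 5, which leaves 7 genes, beside 8.96% of all genes. With a log2 threshold of 2 they became 1 (*Gata3*), beside 5.76%. In the main setting the share of all genes was 15.1%. In tw18/tw18 against tw18/+, the 6 became 0 with a log2 threshold of 2, beside 4.75% of all genes upwards. After rescaling to equal FPKM sums they became 7, since *Cdx2* then reached 1.06, beside 20.7% of all genes. In the main setting this share was 14.9%. The other settings gave between 5 and 8, beside between 9.18% and 24.2% of all genes upwards. The median difference between tw18/+ and wild type, 0.032, changed its sign to -0.065 with an FPKM of at least 5, to -0.0010 with equal FPKM sums and to -0.0064 with equal sums without *Lars2*. The median difference in tw18/tw18 stayed between 1.07 and 1.26 against wild type, and between 1.22 and 1.45 against tw18/+. In tw18/+ none of the genes passed the threshold of 1 or 2 under any setting tried. Of all genes, between 1.12% and 15.8% passed it upwards there. Leaving out *Plet1*, an alternative chosen after seeing the data, could change no count of genes past the threshold, since *Plet1* was under it in each comparison. Equal FPKM sums would raise each log2 ratio of tw18/tw18 against wild type by 0.21. Then 2 genes of the FGF list and 2 of the germ cell list would pass upwards instead of 1 each, beside 20.3% of all genes. The counts upwards would also go from 6 to 8 for the family relatives, from 4 to 5 for the Hippo list and from 3 to 4 for the giant cell list. For the decidual list they would go from 9 to 10 and for the endothelial list from 7 to 8. Depth limits *Cdx2* and *Ascl2* most, with about 15 and 29 fragments in wild type.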
